A study of Mus musculus with 16 samples.

Results

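Olfactory receptor genes, whose mouse symbols are Olfr followed by a number, form the largest gene family of the mouse. Each encodes a receptor with several membrane-spanning helices that couples to the olfactory G protein in the nose, and each mature olfactory sensory neuron expresses a single receptor gene from a single allele. In most other cells nearly all of the family is silent. It lies in dense, CpG-poor gene clusters that are packed into heterochromatin, and a typical member has a coding exon without introns that lies behind short noncoding exons. DNA methylation at CpG sites in promoters, H3K4me3 at starts of active genes, H3K36me3 over transcribed gene bodies and H3K27me3 at repressed genes were described here for this family in mouse induced pluripotent stem cells (iPSC), made from kidney and tail cells.

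Members were chosen by name alone, as genes on chromosomes 1 to 19 whose symbol is Olfr and a number. The methylation table held 1111 of them among 55471 genes and the histone table held 1092 among 43984 genes, and 990 were in both by identifier. In the 1111, 1097 were annotated as protein coding in GENCODE M21, 11 as polymorphic pseudogenes and 3 as other pseudogenes. A few symbols were listed 2 times, namely Olfr290 in the methylation table and Olfr113, Olfr115 and Olfr247 in the histone table. Of the histone table's members, 1001 had an Ensembl identifier that was also in the methylation table, and 11 of these carried another symbol there.

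The study compared iPSC lines from kidney proximal tubule cells (PTC) with lines from tail tip fibroblasts (TTF) to ask whether the cell of origin leaves marks on the epigenome. All lines came from mice heterozygous for SLC34a1-GCE, tdTomato, rtTAROSA (neo-in) and OKMS-250, which were fed tamoxifen for 2 weeks from an age of 6 weeks and used at 8 to 10 weeks. In PTC the SLC34a1 promoter drove Cre, and tdTomato+/GFP+ cells were sorted, whereas TTF received Cre from a non-integrating plasmid. Both kinds of cell were reprogrammed with 1.5 µg/ml doxycycline and LIF, and each line is 1 clone that no longer needed doxycycline. Lines PTC11 and PTC12 stand against TTF1 and TTF4, with 1 library a line for methylation, H3K4me3 and H3K36me3, while both PTC libraries of H3K27me3 carry the name PTC11 in the labels, although the study names the second by the other PTC line. With 2 lines against 2, the exact permutation test cannot give a two-sided p below 0.33. The tables hold no read counts or coverage, so the depth behind any value is unknown, and p-values measure only the spread between clones.

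All 8 listed pluripotency genes (Pou5f1, Sox2, Nanog, Zfp42, Lin28a, Dnmt3b, Dppa5a and Tdgf1) had H3K4me3 in at least 1 line and 6 had it in all 4. Zfp42 and Dppa5a lacked it in TTF4, where their promoter methylation was 0.80 and 0.77. H3K36me3 was found at all 8 in at least 1 line and at 4 in all 4 lines. Pou5f1, Nanog and Zfp42 lacked H3K36me3 in TTF4 alone. Of 6 listed genes of the proximal tubule 3 had H3K4me3 in at least 1 line and only Lrp2, an endocytic receptor, in all 4, while Slc34a1, the phosphate transporter whose promoter drove Cre, had none. Of 6 listed fibroblast genes 5 had it in at least 1 line and only Thy1 in all 4. Over all autosomal genes 51.7% had H3K4me3 in some line and 33.0% in all 4. Among genes outside the family with over 40 CpGs within 1000 bp of the start, 97.4% had it in some line. The marker counts were not matched for CpG number.

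The promoters of the family were poor in CpGs. Within 1000 bp of the transcription start site (TSS) of the methylation table, Olfr genes had a median of 7 CpGs (quartiles 5 and 10, highest 46) against 26 for all autosomal genes. No more than 10 CpGs were counted at 889 of 1111 Olfr genes (80.0%) and at 16.4% of all autosomal genes, and over 40 at 1 Olfr gene and at 34.2% of all. The median GC content of the same windows was 36.4% for Olfr genes and 46.5% for all. In the 300 bases from 250 before to 50 after the TSS, 395 Olfr promoters (35.6%) held no CpG at all, against 8.67% of all autosomal promoters.

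Where the TSS lies differed between the tables. The methylation table used GENCODE M21 coordinates for all 1111 members, and 1036 of 1108 with a coding sequence started upstream of it, by a median of 3151.5 bp. In the histone table most gene models were coding only, with a median span of 957 bp, a span that is a multiple of 3 in 68.4% of genes, and a start at the first coding base in 570 of 1000. Starts of the 990 shared genes lay a median of 2602.5 bp apart, and in 250 they lay within 1000 bp. Methylation was therefore read around annotated first exons, and H3K4me3 mostly around the coding exon, so the marks of a gene are given side by side and were not joined gene by gene.

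To show what such promoters look like, the sequences from 250 bases before to 50 after the TSS in mm10 are given for the genes with the lowest and highest mean methylation over the 4 lines among genes with at least 6 CpGs. The TSS is base 251, and CpGs are in capitals. The lowest were Olfr1487 (chr19:13617125-13617424, plus strand), Olfr251 (chr9:38376836-38377135, plus strand) and Olfr556 (chr7:102664649-102664948, plus strand).
Olfr1487: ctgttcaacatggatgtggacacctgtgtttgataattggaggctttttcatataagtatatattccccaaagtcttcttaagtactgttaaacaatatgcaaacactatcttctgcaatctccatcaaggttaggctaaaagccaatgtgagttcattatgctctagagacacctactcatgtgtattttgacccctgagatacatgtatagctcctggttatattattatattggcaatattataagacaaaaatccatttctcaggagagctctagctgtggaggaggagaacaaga
Olfr251: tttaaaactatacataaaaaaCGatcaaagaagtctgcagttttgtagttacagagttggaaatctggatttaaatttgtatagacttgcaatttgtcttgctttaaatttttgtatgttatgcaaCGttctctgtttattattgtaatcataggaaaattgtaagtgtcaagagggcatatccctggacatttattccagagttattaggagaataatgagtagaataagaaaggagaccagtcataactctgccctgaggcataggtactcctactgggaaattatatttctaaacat
Olfr556: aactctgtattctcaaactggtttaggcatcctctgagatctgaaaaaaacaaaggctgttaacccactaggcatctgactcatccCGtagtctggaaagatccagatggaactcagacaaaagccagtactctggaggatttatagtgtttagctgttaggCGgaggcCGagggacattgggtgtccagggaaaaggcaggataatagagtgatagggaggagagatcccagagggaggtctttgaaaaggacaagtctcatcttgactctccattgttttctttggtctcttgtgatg
The highest were Olfr812 (chr10:129846045-129846344, minus strand) and Olfr959 (chr9:39575520-39575819, minus strand).
Olfr812: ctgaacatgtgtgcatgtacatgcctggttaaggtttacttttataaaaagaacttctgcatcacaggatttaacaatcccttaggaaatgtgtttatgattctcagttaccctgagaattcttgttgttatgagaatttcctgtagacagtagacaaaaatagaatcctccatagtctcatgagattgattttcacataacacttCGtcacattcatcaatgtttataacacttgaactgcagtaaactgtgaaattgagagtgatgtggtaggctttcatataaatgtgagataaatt
Olfr959: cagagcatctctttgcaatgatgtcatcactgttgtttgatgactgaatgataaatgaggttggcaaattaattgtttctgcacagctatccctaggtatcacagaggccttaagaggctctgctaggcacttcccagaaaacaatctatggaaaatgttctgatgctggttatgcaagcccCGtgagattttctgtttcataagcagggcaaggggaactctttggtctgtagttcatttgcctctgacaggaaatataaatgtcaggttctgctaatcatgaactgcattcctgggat
Between 0 and 3 CpGs fell in each of these 5 sequences, with 0 in Olfr1487, 3 in Olfr556 and 1 in each of the highly methylated promoters. Their methylation values rest on the 6 to 8 CpGs within 1000 bp of the TSS.

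Short motifs were searched on both strands of these 300-base promoters. TAATTA, the core bound by homeodomain factors such as Lhx2 and Emx2, was present in 272 of 1111 Olfr promoters (24.5%) and in 6.99% of all autosomal promoters. The palindromic core CCCNNGGG of Ebf factors was present in 164 (14.8%) and in 10.99% of all, and TATAAA in 370 (33.3%) and in 17.3% of all. Around the starts of the histone table, CCCNNGGG was found in 31 of 1092 Olfr genes (2.84%), TAATTA in 205 (18.8%) and TATAAA in 445 (40.8%), against 11.9%, 6.46% and 16.3% of all autosomal genes there. The windows differ from those of other genes in base composition, and a match is a description of the letters only.

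Promoter methylation of the family was above that of all autosomal genes in every line, and its level differed widely from line to line. For line PTC11 the median fraction of methylated CpGs over Olfr genes was 0.490 (quartiles 0.340 and 0.623, n = 1061 genes). PTC12 had a median of 0.618 (0.478 and 0.744, n = 1041). TTF1 had 0.466 (0.296 and 0.633, n = 1081), and TTF4 had 0.80 (0.689 and 0.897, n = 1078). TTF4 stood highest and TTF1 lowest, so that the lines of the same origin lay at both ends and the origins overlapped. The mean of the line medians was 0.554 ± 0.0911 (SD, n = 2) in PTC and 0.633 ± 0.236 (SD, n = 2) in TTF. PTC12 and TTF4 were also the higher lines over all autosomal genes, with medians of 0.383 (PTC11), 0.536 (PTC12), 0.372 (TTF1) and 0.769 (TTF4), and the Olfr median lay above them by 0.107, 0.0821, 0.0941 and 0.0309.

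**Figure D1:**
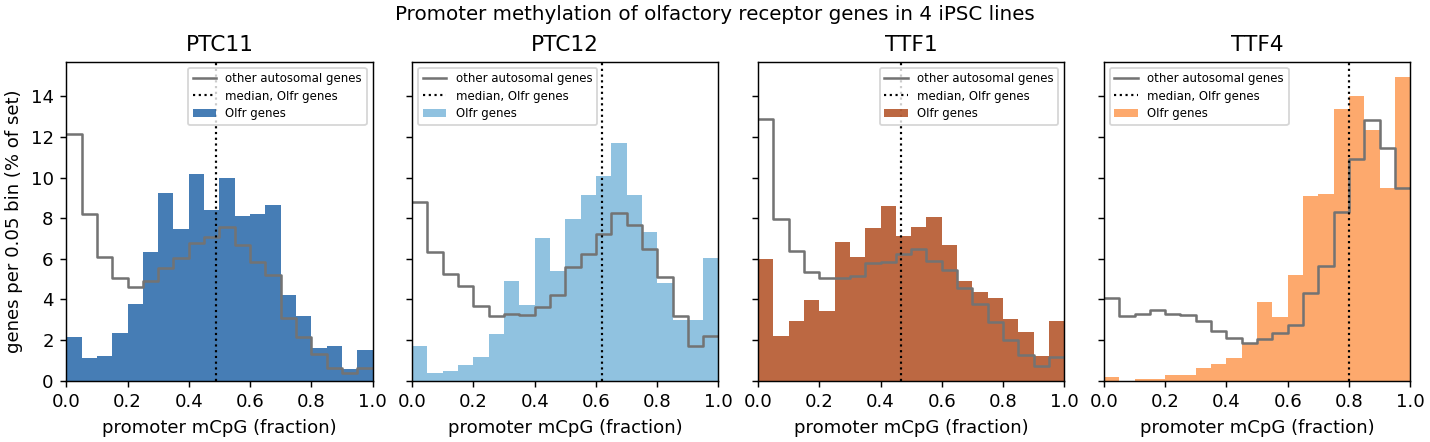
Share of genes (%) by promoter mCpG fraction in bins of 0.05, for Olfr genes (bars) and other autosomal genes (grey line) in each of the 4 lines; the dotted line is the Olfr median (0.490, 0.618, 0.466 and 0.80). Other genes have a second peak near 0 that is lowest in TTF4, where 13.99% of them are under 0.2, while Olfr genes are few there and centre further right in PTC12 and TTF4, with their fullest bin in TTF4 at 0.95 to 1.

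Unmethylated promoters were rare in the family. Here and below, a run of 4 values gives the lines in the order PTC11, PTC12, TTF1 and TTF4. A fraction under 0.2 was seen at 73 (6.88%), 35 (3.36%), 164 (15.2%) and 4 (0.371%) Olfr genes, against 31.0%, 24.6%, 32.2% and 13.7% of all autosomal genes. At the other end, a fraction over 0.8 was seen at 4.71%, 16.4%, 9.34% and 50.2% of Olfr genes and at 2.94%, 12.2%, 5.28% and 44.6% of all. Between these limits lay 88.4%, 80.2%, 75.5% and 49.4% of Olfr genes, so that TTF4 alone had more above than between. Of the 956 Olfr genes measured in every line, 0 were under 0.2 in every line, whereas 12.5% of all autosomal genes were, and 2 were over 0.8 in every line (0.209%, against 0.186% of all). The remaining members had a value in 3 lines (134 genes), 2 lines (15), 1 line (5) or none (1). Values of exactly 0 were listed for 19, 12, 44 and 1 Olfr genes, and values of exactly 1 for 11, 46, 22 and 92.

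Within the family, which gene was high or low was hardly shared between lines. Over the 956 genes, Spearman correlations between pairs of lines lay between 0.0803 and 0.122, while over the other autosomal genes they lay between 0.636 and 0.755. Other genes with as few CpGs resembled Olfr genes in this, with correlations of 0.0698 to 0.145 at 6 to 10 CpGs beside 0.0706 to 0.0955 for Olfr genes. At 11 to 20 CpGs the median correlation was 0.0688 for 186 Olfr genes and 0.165 for other genes. With 21 to 40 CpGs other genes had correlations of 0.262 to 0.550, whereas the 28 Olfr genes of that class had -0.346 to 0.331. With over 40 CpGs other genes had 0.691 to 0.765. The points are genes of the same 4 libraries and are not independent. The median range between the highest and lowest line was 0.487 for an Olfr gene and 0.375 for any autosomal gene. After the mean of each line was subtracted, the median SD between the 4 lines was 0.165 for Olfr genes and 0.120 for all. By CpG number it was 0.187 for Olfr genes and 0.198 for other genes at 0 to 5 CpGs, and 0.167 and 0.165 at 6 to 10. It was 0.152 and 0.136 at 11 to 20 CpGs, and 0.136 and 0.118 at 21 to 40. TTF4 was the highest line at 613 of 956 Olfr genes (64.1%) and at 76.0% of all autosomal genes, and exceeded the mean of the other 3 lines by a median of 0.268 at Olfr genes and 0.231 at all.

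Once genes were grouped by the number of CpGs, the medians of Olfr genes were close to those of other genes in classes up to 40 CpGs. With 6 to 10 CpGs, which holds 548 Olfr genes, the medians were 0.481, 0.617, 0.475 and 0.802 for Olfr genes and 0.50, 0.649, 0.482 and 0.807 for other autosomal genes. With 0 to 5 CpGs (341 Olfr genes) they were 0.468, 0.586, 0.40 and 0.778 against 0.483, 0.620, 0.457 and 0.778. The 191 Olfr genes with 11 to 20 CpGs had 0.524, 0.649, 0.52 and 0.819 against 0.506, 0.663, 0.508 and 0.839. Even the 30 Olfr genes with 21 to 40 CpGs stayed at 0.489, 0.645, 0.468 and 0.822, close to the 0.481, 0.646, 0.497 and 0.851 of other genes. Low methylation appeared among other genes with over 40 CpGs, at 0.0927, 0.133, 0.0955 and 0.265, a class that held 1 Olfr gene, Olfr284, which was at 0.849, 0.718, 0.755 and 0.885.

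**Figure D2:**
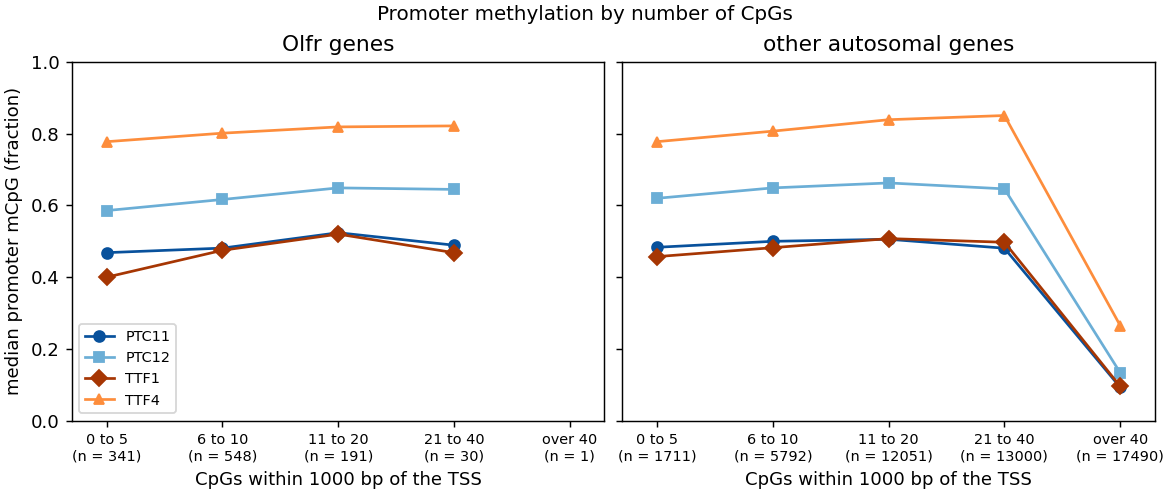
Median promoter mCpG fraction by number of CpGs within 1000 bp of the TSS for Olfr genes (left) and other autosomal genes (right), 1 line of the plot per iPSC line; classes under 20 genes are not drawn. In classes up to 40 CpGs the panels are alike, with TTF4 near 0.8 and PTC11 and TTF1 near 0.5, and the drop with over 40 CpGs exists for other genes alone.

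Across the 956 Olfr genes the mean over the 4 lines was weakly related to CpG number (Spearman rho 0.177, across genes), whereas among other genes it was lower at promoters with more CpGs (rho -0.651). The 72 Olfr genes whose annotation starts at the first coding base had medians of 0.521, 0.667, 0.517 and 0.808, and the 1036 with an upstream start had 0.486, 0.615, 0.464 and 0.80. Another gene's TSS lay within 1000 bp in 10 members.

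Other chemoreceptor families had similar medians and the same high line. Vomeronasal receptors, which detect pheromones, had medians of 0.50, 0.60, 0.424 and 0.777 for the 229 Vmn1r genes and 0.482, 0.580, 0.418 and 0.736 for the 121 Vmn2r genes, with 8 CpGs at the median of each. The 35 bitter taste receptors (Tas2r) had 0.405, 0.633, 0.474 and 0.855. The 16 trace amine receptors (Taar), which smell volatile amines and had a median of 17.5 CpGs, had 0.480, 0.654, 0.539 and 0.854. TTF4 was highest and PTC12 second in each of the 4 families, as in Olfr.

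By position, the family fell into 47 clusters when neighbouring starts up to 1 Mb apart were joined, and 22 of them held at least 10 measured members and 1027 genes together. TTF4 had the highest median in 21 of these 22 clusters, and PTC12 lay above both PTC11 and TTF1 in 19. The largest, on chromosome 2 from Olfr987 to Olfr1274 (chr2:85330779-90403897), has 224 members with medians of 0.502 (PTC11), 0.619 (PTC12), 0.458 (TTF1) and 0.842 (TTF4). The next, on chromosome 7 from Olfr543 to Olfr692 (chr7:102476579-105369355, 127 members), had 0.494, 0.577, 0.470 and 0.795. Exceptions were clusters of 10 to 30 members. PTC12 was below TTF1 on chromosome 1 from Olfr16 to Olfr220 (19 members), at 0.526 against 0.538. It was below PTC11 on chromosome 10 from Olfr1358 to Olfr57 (10 members), at 0.498 against 0.578. In the cluster on chromosome 7 from Olfr310 to Olfr292 (15 members) PTC12 was highest, at 0.732 against 0.704 in TTF4. TTF1 ranged most, from 0.270 in the chromosome 2 cluster from Olfr338 to Olfr368 (27 members) to 0.641 in the chromosome 11 cluster from Olfr20 to Olfr412 (30 members), where PTC12 was at 0.60 and TTF4 at 0.673. The lowest and highest cluster medians were 0.405 and 0.578 in PTC11, 0.498 and 0.737 in PTC12, and 0.673 and 0.927 in TTF4.

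**Figure D3:**
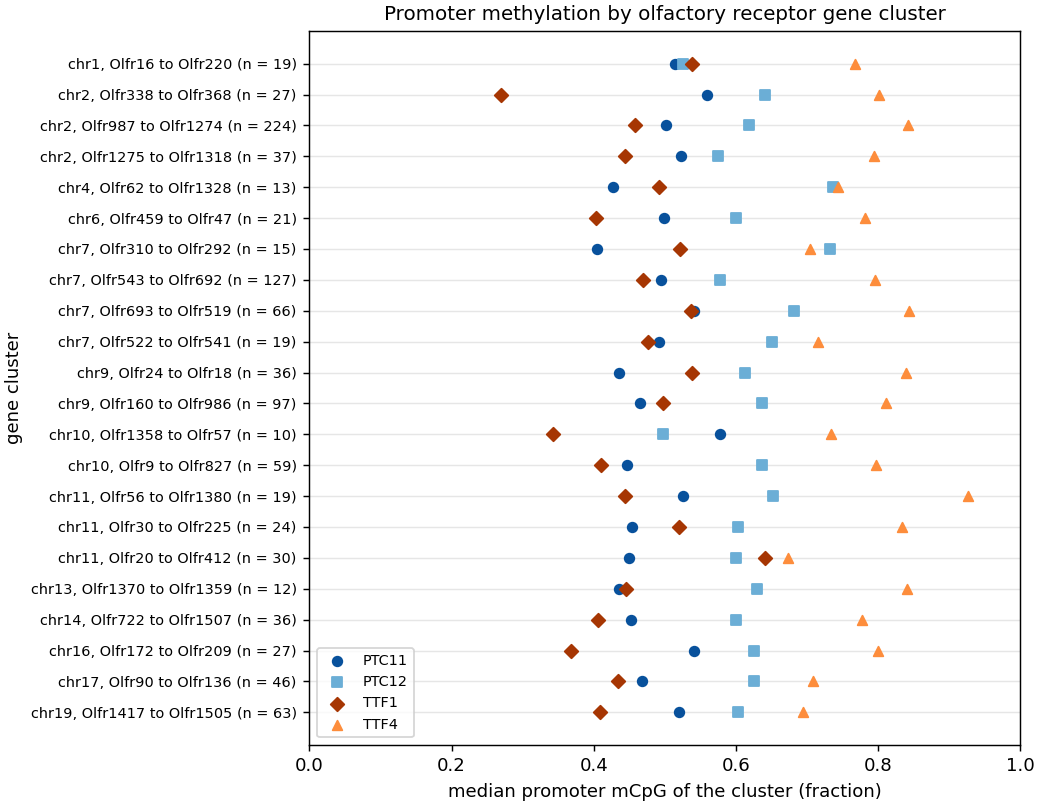
Median promoter mCpG fraction of the 22 Olfr clusters with at least 10 measured members, each named by its first and last gene with the number of members; a symbol is 1 iPSC line. TTF4 is rightmost in 21 clusters, and TTF1 spreads from 0.270 to 0.641.

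Between origins, no Olfr promoter passed the test. On fractions from which the mean of each line had been subtracted, limma with Benjamini-Hochberg adjustment called 0 of 956 Olfr genes at an adjusted p under 0.05, with a smallest adjusted p of 0.35, and it called 2 of 50657 genes in all (0.00395%). The unadjusted p was under 0.05 at 103 Olfr genes (10.8%), of which 41 were higher and 62 lower in TTF lines, against 4.72% of all genes. The limma fit takes the variance expected at a gene's mean level, and beside this count stand the spreads between lines of 0.165 in Olfr genes and 0.120 in all autosomal genes. At 6 to 10 CpGs the spreads were alike, 0.167 in Olfr genes and 0.165 in other genes. The share of genes with an unadjusted p under 0.05 was not matched for CpG number, and the part of the spread in it was not tested. The TTF lines were both above the PTC lines at 163 Olfr genes (17.1%, against 15.0% of all genes) and below both at 143 (15.0%, against 12.8%). The median difference, TTF minus PTC, was -0.014 over Olfr genes and -0.010 over all genes, and its sign rested on 1 clone: it was -0.019 without PTC11, -0.0013 without PTC12, 0.015 without TTF1 and -0.028 without TTF4. The calls also moved with single clones. Without PTC11 limma called 0 Olfr genes at the adjusted p (98 at an unadjusted p under 0.05) and 0.0137% of all genes, and without PTC12 it called 0 (84 unadjusted) and 0.00% of all. Without TTF1 it called 18 Olfr genes (1.84%), near the 1.97% of all genes called there. Without TTF4 it called 23 Olfr genes (2.34%) and 0.517% of all genes. With each line centred on its median 2 Olfr genes were called (0.209%, against 0.103% of all genes), Olfr430 and Olfr307.

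The genes with the lowest mean methylation had no low value that held in every line. Olfr1487 had fractions of 0.362 (PTC11), 0.145 (PTC12), 0.0238 (TTF1) and 0.492 (TTF4). Olfr251 had 0.222, 0.0444, 0.40 and 0.514, and Olfr556 had 0.125, 0.149, 0.420 and 0.544. In Olfr251 and Olfr556 the TTF lines were both above the PTC lines, while in Olfr1487 the TTF lines were the lowest and the highest. Olfr355 had 0.154, 0.0296, 0.256 and 0.833. Olfr313 had 0.267, 0.374, 0.0109 and 0.647, and Olfr78 had 0.333, 0.267, 0.04 and 0.667. In each of these last 3 genes TTF4 was above 0.6. None of the 6 passed limma, with adjusted p of 0.85 for Olfr355 and 1.00 for the others. At the top, Olfr812 had 0.676, 1.00, 0.813 and 1.00, Olfr959 had 0.672, 0.956, 0.859 and 1.00, and Olfr993, which starts at its first coding base and has 11 CpGs, had 0.954, 0.857, 0.768 and 0.885. TTF4 was the highest line, alone or with PTC12, in Olfr812 and Olfr959, and PTC11 was the highest in Olfr993.

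The largest differences between origins belonged to promoters with 3 to 9 CpGs and with values at the ends of the scale. Olfr430 (chromosome 1, 4 CpGs) had 0.333 (PTC11), 0.00 (PTC12), 1.00 (TTF1) and 0.760 (TTF4), a centred difference of 0.63 ± 0.17 (SE) and a limma adjusted p of 0.35. Olfr829 (chromosome 9, 9 CpGs) had 0.250, 0.372, 1.00 and 0.852, and Olfr734 (chromosome 14, 6 CpGs) had 0.00, 0.233, 0.460 and 0.966. In these 3 genes the PTC lines were the lower pair. Olfr307 (chromosome 7, 9 CpGs) had 0.635, 1.00, 0.00 and 0.625, a centred difference of -0.59 ± 0.16 (SE) and a limma adjusted p of 0.35. Olfr448 (chromosome 6, 4 CpGs) had 0.80, 0.778, 0.00 and 0.684, and Olfr844 (chromosome 9, 3 CpGs) had 0.420, 0.917, 0.0658 and 0.378. In these the TTF lines were below the PTC lines, and in Olfr307 and Olfr448 TTF1 was listed at 0. These 6 genes were chosen with both TTF lines on one side of both PTC lines after centring. That choice fixes their exact permutation p at 0.33, the smallest the design allows, so it carries no information.

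Several receptors have been reported in kidney, the organ of origin of the PTC lines. Olfr78, a receptor for short-chain fatty acids found in renal arterioles, is among the lowest above. Olfr1393, which has been linked to glucose handling in the proximal tubule, had 0.614 (PTC11), 0.638 (PTC12), 0.278 (TTF1) and 0.833 (TTF4), so the PTC lines lay between the TTF lines. Olfr1392 had 0.333, 1.00, 0.0834 and 0.796, Olfr90 had 0.388, 0.401, 0.489 and 0.926, and Olfr1373 had 0.664, 0.787, 0.807 and 0.802. Olfr56, whose annotated start lies 155305 bp from its coding sequence, had values in the TTF lines alone (0.250 and 1.00). None of the 5 with 4 lines passed limma (adjusted p of 1.00 each). In Olfr90 and Olfr1373 both TTF lines exceeded both PTC lines, and once the mean of each line was subtracted this held in Olfr90 and no longer in Olfr1373.

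Receptors that are much studied in the nose showed the same scatter. Olfr1507, a standard model of receptor gene choice, had 0.238 (PTC11), 0.449 (PTC12), 0.112 (TTF1) and 0.850 (TTF4). Olfr151 and Olfr160, which both respond to acetophenone, had 0.359, 0.591, 0.451 and 0.745, and 0.569, 0.181, 0.572 and 0.826. Olfr16, which is also expressed in sperm, was the exception with 0.679, 0.409, 0.503 and 0.269, where TTF4 was lowest. Olfr2, the octanal receptor, had 0.70, 0.558, 0.498 and 0.925. Olfr73, the eugenol receptor, had 0.308, 0.462, 0.436 and 1.00, and Olfr17 had 0.375, 0.667, 0.0925 and 0.732. The receptors with roles outside the nose, Olfr544 and Olfr558, had 0.556, 0.840, 0.177 and 0.885, and 0.396, 0.646, 0.679 and 0.779. TTF4 was the highest line in 8 of these 9 genes, where it was so at 64.1% of Olfr genes and 76.0% of all autosomal genes.

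H3K4me3 was found at few members of the family. The deposited value is the RPKM (reads per kilobase, scaled to the library) above input, averaged over peaks from 2 kb before to 3 kb after the TSS, and a gene without a peak has no value. Values were listed at 2 (0.183%), 21 (1.92%), 14 (1.28%) and 0 of 1092 Olfr genes, against 36.3%, 47.6%, 46.2% and 36.8% of all autosomal genes. A value in some line was listed for 27 Olfr genes, 19 of them in a single line, 6 in 2, 2 in 3 and 0 in all 4. PTC12 and TTF1, the libraries with the most Olfr genes, were also those with values at the most genes overall (19378 and 18808 autosomal genes, against 14758 in PTC11 and 14979 in TTF4), and the part of this in the Olfr counts was not tested. Every Olfr gene lacked a value in at least 1 line, so none entered the limma fit over genes with 4 values. With missing values taken as 0, 27 could be tested and limma called 0 of them at an adjusted p under 0.05, with 0 at an unadjusted p under 0.05 and 0.00% of all genes called. Without TTF4, Olfr94 and Olfr95 could be tested and 0 of 2 passed either threshold, where 0.931% of all genes were called.

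The marked genes were mostly CpG-rich. Around the starts of the histone table the 27 had a median of 34 CpGs within 1000 bp, and the other 1065 had 10. H3K4me3 was found in some line at 8 of 12 Olfr genes with over 40 CpGs (66.7%), at 13 of 84 with 21 to 40 (15.5%), at 4 of 386 with 11 to 20 (1.04%) and at 2 of 610 with 10 or fewer. Other autosomal genes of the first 3 classes had it at 97.4%, 39.0% and 10.4%, so Olfr genes lay below other genes of the same class. The class over 40 is open, and the highest number was 85 CpGs in Olfr genes and 312 over all autosomal genes. The starts of Olfr genes also lie mostly at the coding exon here, so the windows are not matched. The CpGs lay mainly after the start, with a median of 23 in the 1000 bp after and 8 in the 1000 bp before. More lay after than before in 24 of 27 (88.9%), and the same was so in 78.2% of all 1092 members. No other gene outside the family started in the window of 26 of the 27, the exception being Olfr66 with Gm15118, which had the same value. The value of 3 further marked genes was equal to that of a gene elsewhere on the chromosome, namely Olfr323 with Gm12127, Olfr139 with Pgam1-ps1 and Olfr448 with Cyp26b1. Values of the family were low for the mark, with a median of 2.40 RPKM in PTC12 and 2.74 in TTF1 beside 4.65 and 5.08 over all autosomal genes with a value.

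**Figure D4:**
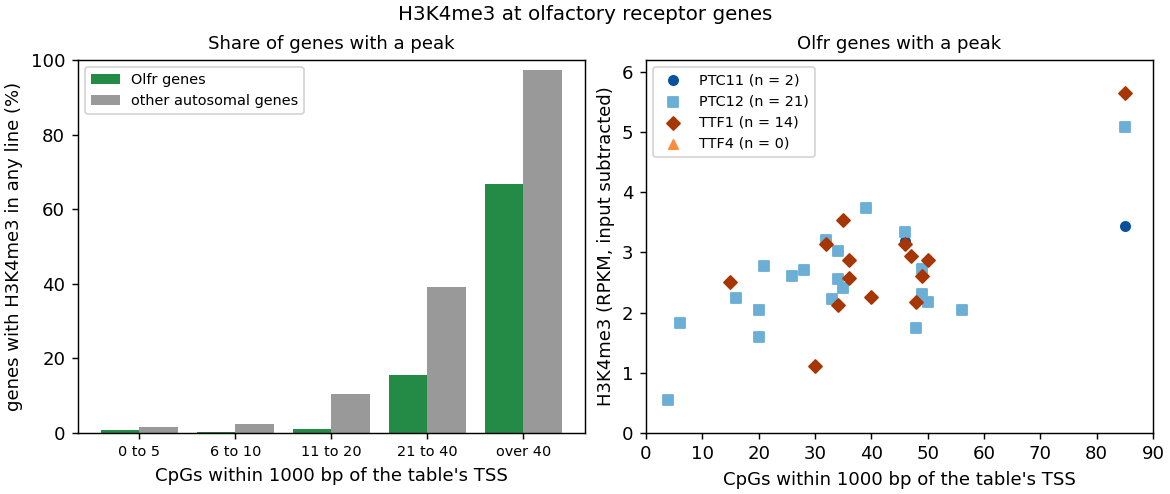
Left, share of genes (%) with an H3K4me3 value in any line by number of CpGs within 1000 bp of the histone table's TSS, for Olfr genes (green) and other autosomal genes (grey). Right, H3K4me3 (RPKM, input subtracted) against the number of CpGs for the 27 Olfr genes with a value, 1 symbol per gene and line; Olfr94 stands alone at 85 CpGs and no gene has a value in TTF4.

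Olfr94 and Olfr95, neighbours on chromosome 17 (chr17:37196708-37198011 and chr17:37210894-37211867, minus strand), were the only members with H3K4me3 in 3 lines. Olfr94 had 3.44 RPKM in PTC11, 5.08 in PTC12 and 5.66 in TTF1, and Olfr95 had 3.19, 3.33 and 3.15. Both had no value in TTF4. Olfr94 has 85 CpGs within 1000 bp, 76 of them after the start, and Olfr95 has 46 with 43 after it. The highest value at a gene marked in a single line was 3.73 RPKM at Olfr324 on chromosome 11 in PTC12. The starts used by the histone table are shown for these 3 genes, with CpGs in capitals and the start at base 251, in mm10 at chr17:37197962-37198261 (minus strand) for Olfr94, chr11:58597095-58597394 (plus strand) for Olfr324 and chr17:37211818-37212117 (minus strand) for Olfr95.
Olfr94: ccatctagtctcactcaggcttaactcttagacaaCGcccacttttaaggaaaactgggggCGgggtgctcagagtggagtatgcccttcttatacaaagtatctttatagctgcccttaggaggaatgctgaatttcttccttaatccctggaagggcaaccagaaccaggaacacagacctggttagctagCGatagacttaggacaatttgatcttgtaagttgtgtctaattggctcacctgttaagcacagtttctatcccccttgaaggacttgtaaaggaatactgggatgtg
Olfr324: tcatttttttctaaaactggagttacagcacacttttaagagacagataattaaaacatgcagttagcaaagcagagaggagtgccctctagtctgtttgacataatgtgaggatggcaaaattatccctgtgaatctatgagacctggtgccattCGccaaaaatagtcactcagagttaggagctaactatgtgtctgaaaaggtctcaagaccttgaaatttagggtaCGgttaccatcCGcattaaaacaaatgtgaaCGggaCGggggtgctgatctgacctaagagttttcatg
Olfr95: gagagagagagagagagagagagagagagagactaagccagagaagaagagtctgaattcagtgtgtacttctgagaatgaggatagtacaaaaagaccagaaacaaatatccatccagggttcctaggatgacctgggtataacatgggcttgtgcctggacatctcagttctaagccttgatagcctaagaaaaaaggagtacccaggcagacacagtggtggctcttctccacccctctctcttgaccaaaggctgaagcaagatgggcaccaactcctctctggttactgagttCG
These windows held 3, 5 and 1 CpGs, so most CpGs counted lay further into the gene than the letters shown. For Olfr94 and Olfr324 the M21 coding sequence begins at -2689 and -1975 bp from these starts, that is, before them, so both values rest on the placement of the older gene models.

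Of the other marked genes, Olfr658 and Olfr1349 on chromosome 7 had 3.21 and 2.2 RPKM in PTC12 and 3.14 and 2.87 in TTF1. Olfr212 on chromosome 6 (2.40 and 3.53), Olfr1344 on chromosome 7 (2.31 and 2.60, overlapped by Gm20715) and Olfr368 on chromosome 2 (2.56 and 2.12) had values in the same pair of lines, and the last gene with 2 lines had 1.74 and 2.2. In 5 of the 8 genes with a value in both lines TTF1 was the higher, so neither line stood above the other throughout. A further 13 genes were marked in PTC12 alone, from 0.54 RPKM to the 3.73 of Olfr324, among them Olfr455 (3.02), Olfr374 (2.77), Olfr283 (2.72), Olfr15 (2.70), Olfr223 (2.60), Olfr139 (2.25) and Olfr982 (2.22). Another 6 were marked in TTF1 alone, from 1.11 RPKM upwards, among them Olfr284 (2.95), Olfr66 (2.87), Olfr323 (2.57), Olfr401 (2.50) and Olfr179 (2.27). Chromosome 15, which holds 9 Olfr genes in the histone table, had 4 of the 27, and chromosome 2, which holds 283, had 1. Over the family the share was 2.47%. The 4 on chromosome 15 had from 47 (Olfr284) to 56 (Olfr281) CpGs, where the median of the family was 10. Counted after these values were seen, 10 of 90 genes in clusters of fewer than 10 members had H3K4me3 (11.1%) and 17 of 1002 in larger clusters (1.70%), where the median CpG numbers were 15 and 9. Among genes with 21 to 40 CpGs the shares were 15.4% (4 of 26) and 15.5% (9 of 58), and with over 40 CpGs they were 85.7% (6 of 7) and 40.0% (2 of 5).

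Methylation at the annotated first exons of the marked genes was within the range of the rest of the family. The 26 of them in the methylation table had medians of 0.528 (PTC11), 0.550 (PTC12), 0.452 (TTF1) and 0.803 (TTF4), and the other 1085 had 0.489, 0.620, 0.466 and 0.80. At Olfr94 the fractions were 0.215, 0.418, 0.110 and 0.724, and at Olfr95 they were 0.597, 0.421, 0.398 and 0.885. TTF4 was the highest line in both, as it was at 64.1% of Olfr genes and 76.0% of all autosomal genes. No Olfr gene had H3K4me3 in TTF4, and a relation between methylation and the mark was not tested. In 5 marked genes the starts of the tables lay within 1000 bp, which is too few to compare.

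H3K36me3 was found over more members, but still far fewer than in other genes. Over the gene body 112 (10.3%), 49 (4.49%), 53 (4.85%) and 43 (3.94%) Olfr genes were listed with a value, against 70.4%, 54.5%, 56.1% and 48.3% of all autosomal genes. Of the 136 with a value in some line, 61 had it in 1 line, 41 in 2, 22 in 3 and 12 in all 4. These counts include Olfr1055, whose only value, in PTC11, was listed as exactly 0 RPKM. With each mark scored in any line, not in the same line, 18 of the 27 genes with H3K4me3 (66.7%) had H3K36me3. Of the other 1065, 118 (11.1%) had it. Some of the 18 had no line with both marks, such as Olfr324, with H3K4me3 in PTC12 alone and H3K36me3 in PTC11 and TTF1. The genes with H3K4me3 were also richer in CpGs. Over all Olfr genes, H3K36me3 was found in some line at 53.6% of those with 21 to 40 CpGs and 100% of those with over 40. Other autosomal genes of these classes had it at 77.5% and 98.3%. In PTC11 4.00% of Olfr genes with 6 to 10 CpGs, 52.4% of those with 21 to 40 and 100% of the 12 with over 40 had a value. In TTF4 the Olfr shares of these classes were 3.58%, 3.57% and 41.7%, with 7.41% at 0 to 5 CpGs and 2.07% at 11 to 20. The class with the most CpGs stood highest. Other autosomal genes with 6 to 10, 21 to 40 and over 40 CpGs had 21.6%, 33.8% and 79.2% in TTF4. All 9 Olfr genes on chromosome 15 had a value in some line, as did 12 of 283 on chromosome 2, against 12.5% of the family. Those on chromosome 15 had from 15 (Olfr287) to 56 (Olfr281) CpGs, where the median of the family was 10.

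At the 12 genes with H3K36me3 in all 4 lines, PTC12 and TTF4 mostly had the higher values of their origin. Olfr94 was highest, with 2.89 RPKM (PTC11), 9.18 (PTC12), 1.10 (TTF1) and 9.96 (TTF4). Olfr1349 had 3.02, 3.70, 1.78 and 3.84, and Olfr544, a receptor for azelaic acid, had 1.82, 5.48, 0.206 and 4.48. Olfr1285 had 2.34, 2.48, 0.123 and 4.84. TTF4 was above TTF1 at all 12 genes and PTC12 above PTC11 at 10, and the medians were 1.90 (PTC11), 4.05 (PTC12), 1.29 (TTF1) and 3.61 (TTF4). All autosomal genes with a value had medians of 1.61, 3.93, 1.18 and 4.05 RPKM, again with PTC12 and TTF4 above the others. The remaining genes were Olfr1344, Olfr212, Olfr1333, Olfr222, Olfr872, Olfr631, Olfr18 and Olfr56, with values from 0.69 to 5.23 RPKM. Olfr56 spans 156499 bp in the table and is overlapped by Ifi47, Tgtp1, Tgtp2 and others, Olfr872 is overlapped by U6 and Olfr1344 by Gm20715, so their reads cannot be assigned to the receptor alone.

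**Figure D5:**
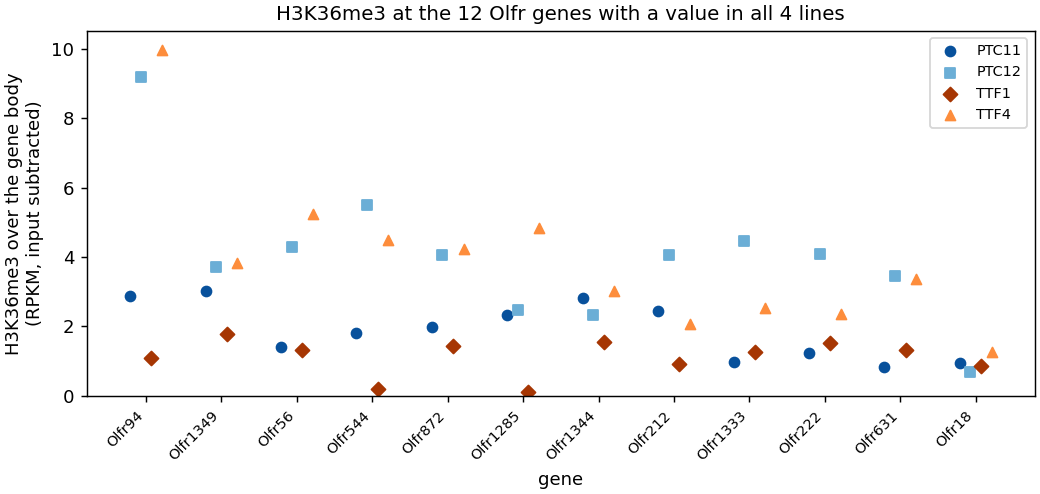
H3K36me3 over the gene body (RPKM, input subtracted) at the 12 Olfr genes with a value in all 4 lines, 1 symbol per line. PTC12 and TTF4 lie above PTC11 and TTF1 at most genes, and Olfr94 reaches 9.18 and 9.96 in the former.

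None of these 12 passed the test between origins: limma on log2(RPKM + 1) with Benjamini-Hochberg adjustment called 0 of 12, with every adjusted p at 1.00, and 19 of 17039 genes in all (0.112%). At an unadjusted p under 0.05 it had 0 of 12 and 0.681% of all. The median difference, TTF minus PTC, was -0.21 on the log2(RPKM + 1) scale, and -0.14 over all genes. Its sign rested on single libraries, as it was -0.66 without PTC11, 0.16 without PTC12, 0.29 without TTF1 and -0.65 without TTF4. At Olfr94 it was -0.39 ± 1.46 (SE), a range in which a large difference in either direction could not be detected. Both TTF lines lay below both PTC lines at 1 gene of the 12 and above them at 0. Of the kidney-reported receptors, Olfr78 had no value in PTC11 and 5.21 (PTC12), 0.187 (TTF1) and 5.92 RPKM (TTF4) elsewhere. Among the much-studied ones Olfr1507 had no value in TTF1 and 1.38 (PTC11), 3.73 (PTC12) and 4.15 RPKM (TTF4) elsewhere. Olfr2 also had none in TTF1, and had 1.19 (PTC11), 2.05 (PTC12) and 1.22 RPKM (TTF4) elsewhere.

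H3K27me3 was listed at 0 Olfr genes in any of the 4 libraries. It was listed at 69 (0.169%) and 144 (0.354%) autosomal genes in the PTC11 libraries, 52 (0.128%) in TTF1 and 11 (0.0270%) in TTF4, so the family cannot be told apart from other genes by this mark.

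Genes that work with the receptors fell into a marked and a mixed list. Of 14 genes known from receptor gene choice, including the enhancer-binding Lhx2, Ldb1 and Ebf1, the demethylase Kdm1a and the H3K9 methyltransferases Ehmt1, Ehmt2 and Setdb1, all 14 had H3K4me3 and H3K36me3 in all 4 lines, and their median promoter methylation was 0.0641 (PTC11), 0.0672 (PTC12), 0.0408 (TTF1) and 0.0458 (TTF4). All 14 have over 40 CpGs, a class in which 97.4% of other genes had H3K4me3 in some line. Over all autosomal genes 51.7% had H3K4me3 in some line and 33.0% in all 4, and 73.1% and 40.98% had H3K36me3. Of 11 genes for odour transduction and receptor trafficking, 7 had H3K4me3 in some line and 5 in all, and their median methylation was 0.300, 0.603, 0.284 and 0.843, which lay below the Olfr medians in PTC11 and TTF1 and near them in PTC12 and TTF4. Gnal, the olfactory G protein subunit, had H3K4me3 of 3.38, 4.49, 3.86 and 2.98 RPKM, and Adcy3, the adenylyl cyclase of olfactory cilia, had 3.23, 4.95, 5.61 and 3.02. Omp, the classical marker of mature olfactory neurons, had H3K4me3 in TTF1 alone (2.81 RPKM) and promoter methylation of 0.507, 0.630, 0.452 and 0.915, while Cnga4, a channel subunit, and Rtp1, a receptor chaperone, had none. Limma tested all 14 genes of receptor choice in methylation, H3K4me3 and H3K36me3, and of the 11 others it tested 11 in methylation, 5 in H3K4me3 and 8 in H3K36me3. It called 0 of these at an adjusted p under 0.05, and at an unadjusted p under 0.05 it had 1 gene of receptor choice in methylation and 1 in H3K4me3.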

How the data were processed

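The lines were profiled by nanopore sequencing for CpG methylation and by ChIP-seq for histone marks. Methylation is a fraction of methylated CpGs per gene, which the authors deposited following alignment to mm10 with minimap2 (2.17-r941) and calling with Nanopolish, averaged over windows of 300 bp in steps of 30 bp within 1000 bp of the TSS. For histone marks the authors deposited an RPKM per gene, made with Bowtie2 (2.1.0), MACS2 (2.0.10) peaks against input and bedtools (2.17.0), less the input RPKM and averaged over peaks. Neither table gives coverage or counts. Single genes were tested with limma (3.58.1, R 4.3.3; lmFit, eBayes with trend) on fractions centred by line, or on log2(RPKM + 1), over genes with a value in all 4 lines, with Benjamini-Hochberg adjustment over all of them. Settings tried were the centring, normalization, scale, pseudocount, trend, filters, missing values and each line left out. The fits were first tested on simulated data, whose gene variances were taken from limma's moderated estimates after an earlier version with unmoderated variances had not recovered the changes put into them at the real spread. The revised version recovered only a part of them at that spread, so real differences can be missed with 2 lines an origin. CpGs, promoters and motifs were read from the GRCm38 (mm10) genome with RefSeq sequence, and gene models from GENCODE M21. Other steps used Python 3.11.15, pandas 2.3.3, scipy 1.17.1 and matplotlib 3.10.9.

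Genes named are the 6 lowest and 3 highest by mean methylation (at least 6 CpGs), the 3 largest differences each way with both TTF lines on one side of both PTC lines, genes with a histone mark, 6 receptors reported in kidney and 9 much-studied ones. Members and lists were chosen with earlier results of these data known.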

Additional observations from a re-analysis of the deposited data

How the results depend on the processing

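The count of Olfr promoters called between origins was 0 and became 2 with each line centred on its median, and ranged from 0 to 23 when 1 line was left out, with 18 without TTF1 and 23 without TTF4. A fit without a line assumes that its lone partner varies like the other origin, and the cause of the extra calls was not tested. The median Olfr difference in methylation, -0.014, was 0.073 without centring, and -0.17 on a logit scale, which has another unit. With 1 line left out it ranged from -0.028 to 0.015, and the median Olfr difference in H3K36me3, -0.21 on the log2(RPKM + 1) scale, ranged from -0.66 to 0.29. The number of Olfr genes with H3K36me3 in TTF1 fell from 53 to 27 when at least 1 RPKM was required. In all 124 of 137 values were scored as unchanged, by rules that differ by kind. A named gene had to keep its direction and its side of the threshold. A count could move by a limited factor, so a fall from 112 to 75 Olfr genes with H3K36me3 in PTC11 was scored as unchanged. A methylation median had to move by less than the spread between lines. An H3K36me3 median had to move by less than the median standard error of 0.94, so a change from -0.21 to 0.29 was scored as unchanged. In 7 cases a gene named for its difference passed the adjusted p, with a line left out or with median centring. All genes called in methylation numbered 2 in the fit reported, 52 with median centring, 9 on chromosomes 1 to 19, 14 with at least 10 CpGs, 1003 without TTF1 and 264 without TTF4. In H3K36me3 they numbered 19, and 0 under quantile normalization, without a variance trend, with missing values as 0 or with a mean of at least 1 RPKM. With missing H3K4me3 taken as 0, 27 Olfr genes could be tested and 0 were called. Joining clusters at 0.5 Mb gave 23 clusters of at least 10 measured members, with TTF4 highest in 22.

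No paired analysis was possible because the line numbers 11 and 12 are not shared with 1 and 4, and the labels give no pairing between origins.

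Fractions without coverage, few CpGs per promoter and 2 clones per origin limit what can be seen: the median standard error of an Olfr difference was 0.157. Tables that place starts differently keep H3K4me3 and methylation apart.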
